A study of Mus musculus with 12 samples.

Results

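The genes described here are 7 water and ion transporters linked to brain swelling: Aqp4, Aqp9, Aqp11, Trpm4, Abcc8, Slc4a4 and Atp1b2. They were taken by symbol from a table of 39756 genes, and all 7 were found and passed the filter on low counts that left 17558 genes for testing. RNA was sequenced from brain tissue of 12 male C57BL/6J mice, 4 per group. Sham mice underwent sham surgery. Vehicle mice were subjected to transient occlusion of the middle cerebral artery (tMCAO), which cuts the blood supply of much of one hemisphere and then restores it. LJP mice had the same occlusion and were given the polysaccharide of the brown alga Laminaria japonica, which by the study's methods was given by stomach tube once daily over 14 days before surgery and continued after it. By the same methods, saline was given on this schedule to both the Sham and the Vehicle mice, while the labels mention it for the Vehicle group alone. All libraries are described as ischemic hemisphere, the Sham libraries included, and all carry the same batch label. By the study's methods the mice were 9 to 10 weeks old and of strain C57BL/6, while the labels give C57BL/6J. The study chose its middle dose after comparing doses, but neither the labels nor the methods state the dose or time point of the sequenced mice.

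Water enters the brain after ischemia in stages, first into cells as sodium, chloride and bicarbonate follow failed gradients, and then across the vessel wall. Aqp4 encodes the main water channel of astrocyte endfeet, Aqp9 a channel for water, glycerol and other small solutes, and Aqp11 an intracellular aquaporin. Abcc8 encodes the sulfonylurea receptor SUR1, a regulatory subunit of potassium channels that can also associate with Trpm4, a nonselective cation channel opened by calcium. Slc4a4 encodes the sodium bicarbonate cotransporter NBCe1, abundant in astrocytes, and Atp1b2 encodes the beta 2 subunit of the Na/K-ATPase, the pump that restores sodium and potassium gradients.

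The genes lie in GRCm38 coordinates at chr9:71110659-71167849 (Aqp9), chr7:97726379-97738247 (Aqp11), chr7:45303155-45334071 (Trpm4), chr7:46104523-46180039 (Abcc8), chr5:88793858-89239656 (Slc4a4) and chr11:69599728-69605978 (Atp1b2). Slc4a4 is on the plus strand and these other genes are on the minus strand. Counts were taken over whole genes. The strand setting of the counting is not given in the sources used here. A gene on the opposite strand lies over Abcc8 (Gm51481, with 5.16% as many counts) and over Trpm4 (Rpl14-ps1, with 3.85% as many), and over Aqp4, Aqp9 and Slc4a4 with at most 1.35% as many.

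Slc4a4 is 1 of 2 members that passed the test in the comparison of the Vehicle and Sham groups, and RefSeq's promoter windows on GRCm38.p6 place starts of it 140706 bases apart. The annotated gene begins upstream of both windows, at chr5:88793858, and no window was available for that start. Each window runs from 250 bases before to 50 bases after a start. The windows are shown because gene counts cannot tell transcripts from these starts apart. Capitals mark a match to GGGCGG on the reverse strand; the other motifs searched on both strands, TATAAA and ACGTG, had no match in either.
Slc4a4, chr5:88887010-88887309, plus strand: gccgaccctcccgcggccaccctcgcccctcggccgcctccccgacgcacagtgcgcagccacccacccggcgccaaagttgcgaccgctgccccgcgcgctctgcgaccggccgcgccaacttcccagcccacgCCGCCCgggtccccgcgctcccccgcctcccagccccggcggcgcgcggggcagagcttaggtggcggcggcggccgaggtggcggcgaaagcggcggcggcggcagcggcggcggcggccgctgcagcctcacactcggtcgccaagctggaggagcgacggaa
Slc4a4, chr5:89027716-89028015, plus strand: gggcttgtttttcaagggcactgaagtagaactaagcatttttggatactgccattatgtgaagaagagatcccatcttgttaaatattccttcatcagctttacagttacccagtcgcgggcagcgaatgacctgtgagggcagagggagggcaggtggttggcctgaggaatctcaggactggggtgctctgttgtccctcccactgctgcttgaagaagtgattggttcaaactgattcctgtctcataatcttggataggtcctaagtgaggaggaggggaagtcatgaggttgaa

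The first window is 80% G and C with 50 CpG dinucleotides, and the second is 48.3% G and C with 3. The median of all 32851 windows in the table is 52.7% G and C and 7 CpG dinucleotides. GGGCGG occurred in 35.7% of all windows, TATAAA in 13.6% and ACGTG in 19.6%. A match is a description of the letters and not a site of binding.

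Levels are given as CPM, the count scaled to the TMM-normalized library size. Total counts per mouse ranged from 17960353 to 22216315, so a floor of 3 counts corresponds to 0.129 to 0.173 CPM. Floors cover counting error only. Divided by the gene length in the deposited table, the mean level in the Sham group was 101 CPM per kilobase for Atp1b2, 22.1 for Slc4a4, 12.9 for Aqp4, 8.83 for Aqp11, 4.67 for Abcc8, 2.42 for Trpm4 and 0.218 for Aqp9. The ranges of neighbours in this order did not overlap among Sham mice. The order depends on the length used: with the exon bases of the GENCODE annotation, Aqp11 (9418 in place of 1322 bases) was at 1.24 and Trpm4 (10826 in place of 4923) at 1.10 CPM per kilobase, both below Abcc8 at 3.74. With the table's lengths the other groups compare as follows. Among Vehicle mice, the ranges of Aqp4 (10.2 to 17.6 CPM per kilobase) and Aqp11 (8.34 to 10.6) overlapped, as did those of Abcc8 and Trpm4. Among LJP mice, the ranges of Slc4a4 (17.5 to 19.7) and Aqp4 (12.0 to 21.5) overlapped, as did those of Abcc8 and Trpm4. Aqp9 had only 12 to 38 counts per mouse, which limits its precision.

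**Figure D1:**
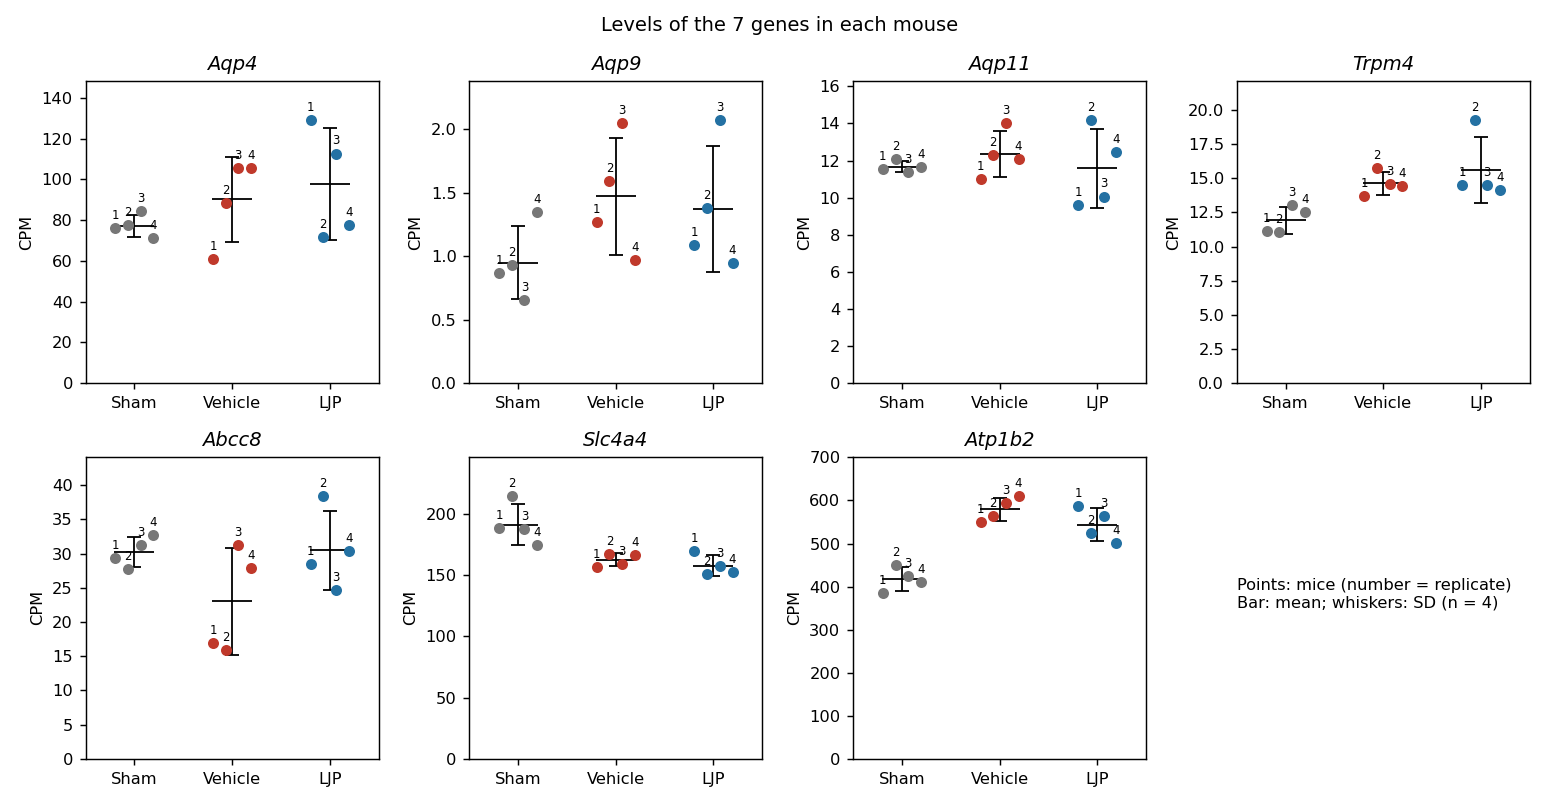
Level of each gene in CPM (vertical axes, from 0) in the Sham, Vehicle and LJP groups, with a point and replicate number for each mouse, the mean as a bar and the SD as whiskers (n = 4). All Vehicle and LJP mice lie above the Sham mice for Atp1b2 and Trpm4 and below them for Slc4a4, while the groups overlap for Aqp4, Aqp9, Aqp11 and Abcc8.

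To compare ischemic with sham tissue, the Vehicle and Sham groups were tested first. Of the 7 genes, 1 rose (Atp1b2), 1 fell (Slc4a4) and 5 did not pass the test, edgeR's quasi-likelihood test with a Benjamini-Hochberg adjusted p below 0.05 over all genes. Among all 17558 genes tested, 39.9% passed (22.7% higher, 17.3% lower), so 2 of 7 is not a higher share than over all genes. The groups did not overlap for 3 of the 7 genes, against 39.5% of all genes. The study's own thresholds ask for an unadjusted p below 0.01 and a log2 fold change beyond 0.58 in size. The study set them on DESeq2 values, while here and below they are applied to the edgeR fit. None of the 7 genes was called at them, against 21.7% of all genes. The median log2 fold change of the 7 genes was 0.22 and 5 of them were positive, where 50% of all genes were. In bulk tissue, a change from more or fewer cells of a type and one from more or less RNA per cell cannot be told apart. This holds for rises as for falls.

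Atp1b2 rose in the Vehicle group. Its level was 385, 450, 425 and 411 CPM among Sham mice and 551, 565, 594 and 610 CPM in the Vehicle mice. Every Vehicle mouse lay above every Sham mouse. The group means were 418 ± 27.1 CPM and 580 ± 26.9 CPM (SD, n = 4), a log2 fold change of 0.47 (SE 0.08, 95% interval 0.30 to 0.64) or 1.39-fold, with an edgeR adjusted p of 0.000982. This call was made in every alternative of the test except the study's fold threshold.

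Slc4a4 fell in the Vehicle group. Its level was 188, 215, 188 and 175 CPM among Sham mice and 157, 168, 159 and 166 CPM in the Vehicle mice. The Vehicle mice all lay below the Sham mice, the nearest pair being 168 and 175 CPM. The means were 191 ± 16.7 and 163 ± 5.30 CPM (SD, n = 4), a log2 fold change of -0.24 (SE 0.07, 95% interval -0.40 to -0.07), or a change of -15.0%, with an edgeR adjusted p of 0.0240. This call was lost at the study's fold threshold and in 6 of the 18 other alternatives: the adjusted p was 0.0801 if Sham mouse 2, the highest of its group, was left out, 0.0523 if Vehicle mouse 1 was, and 0.117 when counts were scaled to library size alone.

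Trpm4 had 11.1, 11.1, 13.04 and 12.5 CPM among Sham mice and 13.7, 15.8, 14.6 and 14.4 CPM in the Vehicle mice. All Vehicle mice lay above all Sham mice, but the difference did not pass the test across all genes. The log2 fold change was 0.29 (SE 0.12, 95% interval 0.04 to 0.55), with an edgeR adjusted p of 0.0653. It was called with library size scaling (adjusted p = 0.0272) and without LJP mouse 2 (adjusted p = 0.0341), a mouse of neither group that enters through the joint fit.

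Abcc8, which encodes the partner of this channel, had 29.3, 27.7, 31.3 and 32.7 CPM among Sham mice and 16.9, 15.9, 31.3 and 27.9 CPM in the Vehicle mice. Vehicle mice 1 and 2 were low, and Vehicle mice 3 and 4 lay within the Sham range. The log2 fold change was -0.40 (95% interval -0.84 to 0.05), with an edgeR adjusted p of 0.139. If Vehicle mouse 3 was left out, the log2 fold change was -0.58 and the adjusted p 0.0283, and it was -0.28 (0.316) if mouse 1 and -0.26 (0.297) if mouse 2 was left out. The same Vehicle mice 1 and 2 had the lowest summed levels of 9 neuron markers (5355 and 4055 CPM, against 6087 to 7214 CPM in all other mice) and the highest summed levels of 7 endothelial markers (948 and 2143 CPM, against 217 to 505 CPM). The part of these in the level of Abcc8 was not tested.

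The aquaporins did not pass the test. Aqp4, on the minus strand at chr18:15389394-15410982, had 76.1, 77.7, 84.3 and 71.2 CPM among Sham mice and 61.1, 88.2, 106 and 105 CPM in the Vehicle mice. Vehicle mouse 1 was the lowest of all 12 mice and the other 3 Vehicle mice lay above all Sham mice. The log2 fold change was 0.22 (95% interval -0.21 to 0.65), with an edgeR adjusted p of 0.391. It was 0.37 (adjusted p = 0.127) without Vehicle mouse 1, 0.13 without Vehicle mouse 3 and 0.14 without Vehicle mouse 4. Vehicle mouse 1 also had the lowest summed level of 9 astrocyte markers (4301 CPM), and Vehicle mouse 4 the highest (6487 CPM). The summed level of 6 microglia markers was also lowest of the Vehicle group in mouse 1 (411 CPM, against 729 to 819 CPM). It was still higher there than in any Sham mouse (291 to 297 CPM). The part of astrocyte or microglia RNA in the level of Aqp4 was not tested.

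Aqp9 had 0.865, 0.926, 0.658 and 1.35 CPM among Sham mice and 1.27, 1.59, 2.05 and 0.970 CPM in the Vehicle mice. The groups overlapped. The log2 fold change was 0.62 (SE 0.33, 95% interval -0.10 to 1.35), the widest interval of the 7 genes, with an edgeR adjusted p of 0.151. Aqp9 is also known from neutrophils, and the summed level of 8 neutrophil markers was 157 CPM in Vehicle mouse 1, 36.0 in mouse 2, 0.700 in mouse 3 and 5.12 in mouse 4. The part of neutrophils in the level of Aqp9 was not tested. Aqp11 ranged from 11.4 to 12.1 CPM in the Sham mice and from 11.03 to 14.05 CPM in the Vehicle mice, with a log2 fold change of 0.08 (95% interval -0.21 to 0.37, edgeR adjusted p = 0.648).

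**Figure D2:**
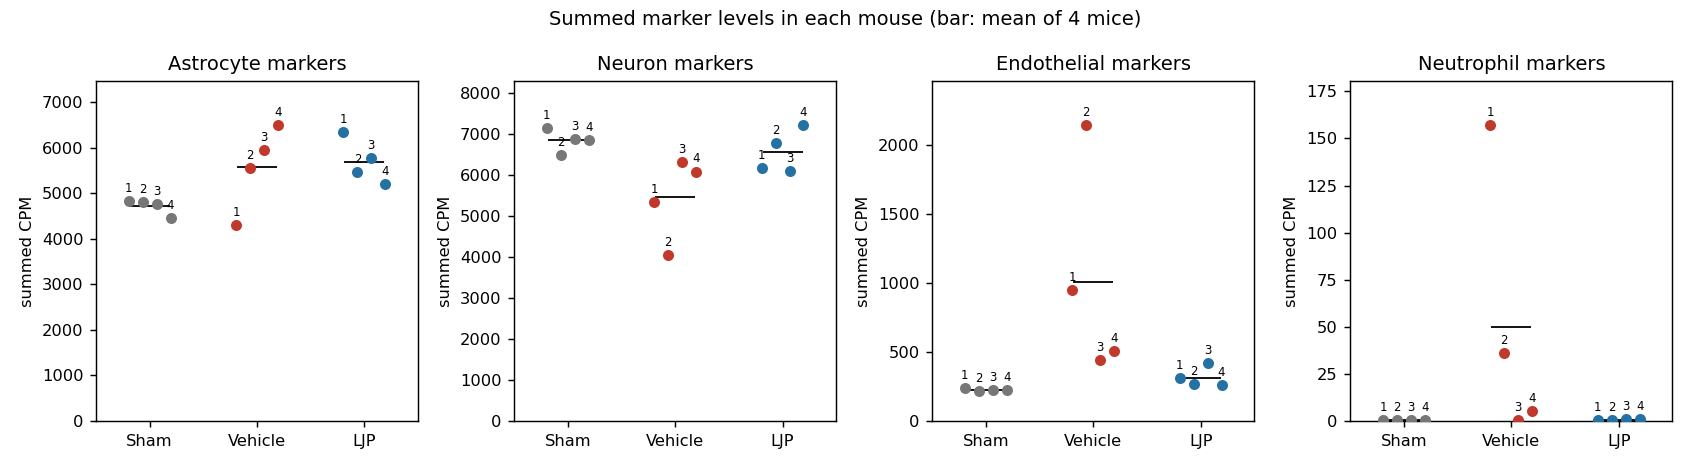
Summed CPM of the 9 astrocyte, 9 neuron, 7 endothelial and 8 neutrophil markers (vertical axes, from 0) in each mouse by group, with replicate numbers and the mean of 4 mice as a bar. Vehicle mouse 1 is lowest for astrocyte and highest for neutrophil markers (157 CPM), and Vehicle mouse 2 is lowest for neuron and highest for endothelial markers (2143 CPM).

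The effect of LJP was addressed by comparing the LJP and Vehicle groups. None of the 7 genes passed the test in edgeR, and none had an unadjusted p below 0.05. None passed in DESeq2 either, which called 13.4% of the genes it gave an adjusted p (3.88% higher, 9.48% lower). Over all genes, edgeR called 4 (0.0228%), while 5212 genes had an unadjusted p below 0.05. None of the 7 genes separated the groups, against 11.7% of all genes, and none passed the study's thresholds, against 6.97% of all genes (1.07% higher, 5.89% lower). The median log2 fold change of the 7 genes was -0.04, and 3 were positive.

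The width of the intervals differed between genes. Slc4a4 had 170, 151, 157 and 153 CPM in the LJP mice, and its log2 fold change against Vehicle was -0.04 (95% interval -0.20 to 0.12). Atp1b2 had 587, 524, 563 and 502 CPM in the LJP mice, and its log2 fold change was -0.09 (95% interval -0.26 to 0.08). As folds, these intervals run from 0.869 to 1.08 for Slc4a4 and from 0.835 to 1.05 for Atp1b2.

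Trpm4 had 14.5, 19.2, 14.5 and 14.1 CPM in the LJP mice, where mouse 2 stood apart, and its log2 fold change was 0.09 (95% interval -0.16 to 0.35). Abcc8 had 28.5, 38.4, 24.7 and 30.4 CPM, with a log2 fold change of 0.41 (95% interval -0.04 to 0.86) and an edgeR adjusted p of 0.198. It was 0.27 without Vehicle mouse 2, 0.29 without Vehicle mouse 1 and 0.28 without LJP mouse 2, and it was called without Vehicle mouse 3 (0.60, adjusted p = 0.0467).

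Aqp4 had 129, 71.8, 113 and 77.4 CPM in the LJP mice, so that mice 1 and 3 were high and mice 2 and 4 lay near the Sham level. Its log2 fold change was 0.12 (95% interval -0.31 to 0.54). The summed microglia markers were at 834 and 840 CPM in LJP mice 1 and 3 and at 499 and 502 CPM in mice 2 and 4. Their part in the level of Aqp4 was not tested. Aqp9 had 1.09, 1.38, 2.07 and 0.948 CPM, with a log2 fold change of -0.10 (95% interval -0.80 to 0.60). Aqp11 had 9.58, 14.2, 10.1 and 12.5 CPM, with a log2 fold change of -0.09 (95% interval -0.38 to 0.19). As folds, the intervals run from 0.807 to 1.46 for Aqp4 and from 0.573 to 1.52 for Aqp9, so the missed threshold does not show that the groups were alike.

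Compared with the Sham group, the LJP group had a higher level of Atp1b2 and of no other member at the same threshold, where 4.75% of all genes were called and 3.85% were called higher. That lean to higher calls over all genes depended on the fit: 81.1% of calls were higher with all 12 mice, 50.7% with only the 2 groups (2048 higher, 1995 lower) and 58.5% without Vehicle mouse 2. The log2 fold change of Atp1b2 was 0.38 (SE 0.08, 95% interval 0.21 to 0.55), or 1.30-fold, with an edgeR adjusted p of 0.0146 and all 4 LJP mice above all Sham mice. The call was lost without LJP mouse 1, LJP mouse 3, or Sham mouse 1, 3 or 4, with adjusted p between 0.0503 and 0.0665. Slc4a4 had a log2 fold change of -0.28 (95% interval -0.44 to -0.12), just above the threshold at an edgeR adjusted p of 0.0520, and DESeq2, which called 7.65% of the genes it gave an adjusted p, called it (adjusted p = 0.00753). Trpm4 had 0.39 (95% interval 0.13 to 0.64, edgeR adjusted p = 0.0900). In the edgeR fit of only the 2 groups, which called 4043 genes over all, Slc4a4 (adjusted p = 0.00715) and Trpm4 (0.0298) were called as well. Groups did not overlap for 3 of the 7 genes, against 24.9% of all genes, and 0 passed the study's thresholds, against 5.90% of all genes. This comparison shares the Sham mice with the first, so the values are not a repeat of it. Cell type markers also differed between these groups: 3 of 9 astrocyte and 5 of 6 microglia markers were called higher in the LJP group. The summed astrocyte level was 5200 to 6337 CPM in the LJP mice and 4460 to 4820 CPM in the Sham mice, with no overlap. Within this sum, Gfap averaged 1569 CPM in the LJP and 141 CPM in the Sham group. Slc1a2 went the other way, at 2348 and 2983 CPM, so the higher sum was not shared by all its markers. The part of these cell types in the level of Atp1b2 was not tested.

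**Figure D3:**
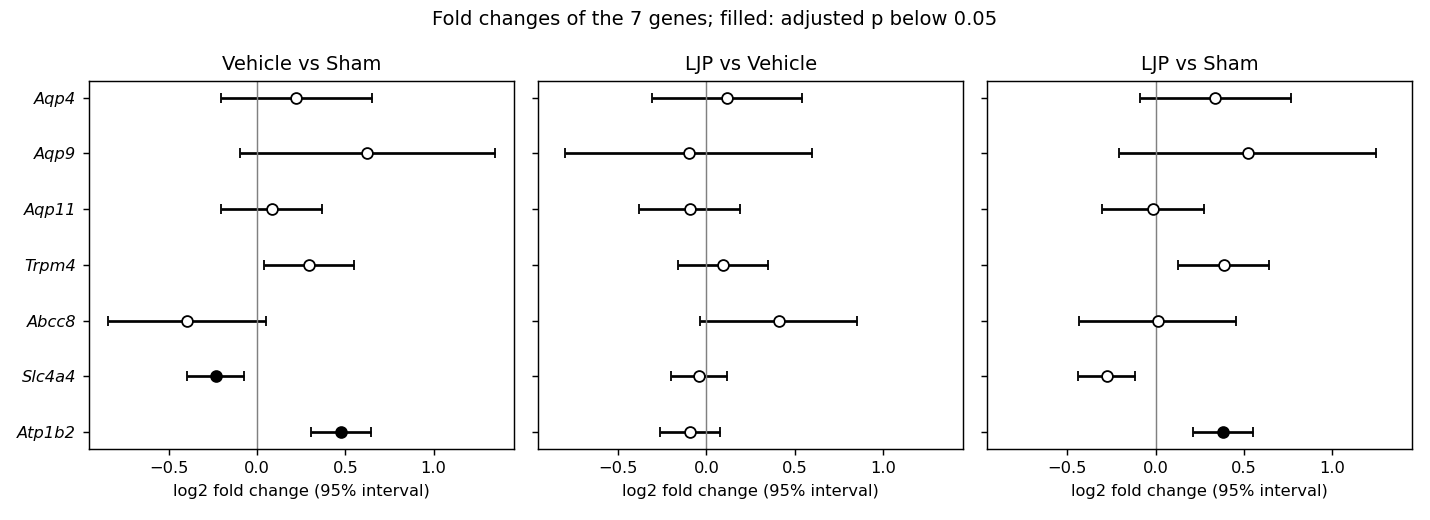
Log2 fold changes (horizontal axis) of the 7 genes in the 3 comparisons, with 95% intervals, filled where the edgeR adjusted p was below 0.05. Atp1b2 is filled against Sham in both the Vehicle (0.47) and LJP (0.38) groups, Slc4a4 is filled in the Vehicle group (-0.24), and no gene is filled between LJP and Vehicle.

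The other genes of the same systems were read from lists, whose counts of calls in Vehicle against Sham stand against the 39.9% called over all genes. Of 9 further aquaporins, only Aqp1 passed the filter on low counts. Aqp1, the water channel of the choroid plexus, averaged 5.49 CPM in the Sham, 6.87 in the Vehicle and 1.42 in the LJP group, and LJP against Vehicle gave a log2 fold change of -2.28 (95% interval -3.72 to -0.84, edgeR adjusted p = 0.0718). DESeq2 (adjusted p = 0.0249) and the study's thresholds called Aqp1 lower in LJP than in Vehicle, and edgeR did in 1 of 12 fits that left out 1 mouse. The summed level of 7 choroid plexus markers was 204 to 1390 CPM in the Sham, 115 to 871 in the Vehicle and 175 to 687 in the LJP group, and LJP mouse 3, the highest of its group for Aqp1 (3.75 CPM), was also the highest for these markers. Vehicle mouse 2, the highest of all mice for Aqp1 (9.67 CPM), had a low sum (129 CPM). The part of dissected choroid plexus in the level of Aqp1 was not tested.

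The complex that anchors Aqp4 at the endfoot contains dystrophin, dystroglycan, syntrophins, dystrobrevins, laminins and agrin, and it was listed together with Mlc1, Hepacam and Trpv4. Of 16 genes tested, 7 rose and 3 fell in the Vehicle group against Sham, with a median log2 fold change of 0.23. Leaving out 1 mouse gave 6 to 12 calls. Lamc1 (1.29) and Lamb2 (1.05), basement membrane laminin chains, rose with the endothelial markers, of which 6 of 7 rose. Their levels were highest in Vehicle mouse 2, at 220 and 151 CPM, and without this mouse their log2 fold changes were 0.82 and 0.69, both still called. The part of endothelial RNA in their level was not tested. Hepacam (0.37) rose, Utrn fell (-0.31), and Dag1 (0.09) and Dmd (-0.29) did not pass the test.

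Among 11 tested Na/K-ATPase subunits and FXYD regulators other than Atp1b2, 3 rose and 2 fell in the Vehicle group, and leaving out 1 mouse gave 2 to 6 calls. Fxyd5 rose by 2.49 and Fxyd1 by 1.23 on the log2 scale, both encoding small proteins that modulate the pump, and Atp1b3 rose by 0.30, a call made in 6 of 12 fits that left out 1 mouse. Atp1b1, the beta 1 subunit, was lower (-0.37). The call for Atp1b1 had an edgeR adjusted p of 0.0420 and was made in 4 of 12 such fits. Fxyd5 (59.7 CPM), Fxyd1 (34.5 CPM) and Atp1b3 (141 CPM) were highest in Vehicle mouse 2, which was also highest for endothelial markers. The part of endothelial RNA in the levels of these genes was not tested.

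Since Atp1b2 and Atp1b1 moved in opposite directions, the share of each beta subunit in the sum of the 3 expressed beta subunits was computed per length. This set was chosen after its values were seen, so the shares are a description with no test. Atp1b2 made up 13.5, 16.7, 15.1 and 14.8% among Sham mice, 24.2, 28.3, 21.5 and 22.2% among Vehicle mice and 21.3, 18.3, 20.6 and 16.4% among LJP mice. The means were 15.0 ± 1.31%, 24.03 ± 3.07% and 19.2 ± 2.24% (SD, n = 4). Every Vehicle mouse lay above every mouse of the other groups, the nearest being LJP mouse 1 at 21.3% and Vehicle mouse 3 at 21.5%, while LJP mouse 4 lay within the Sham range. The neuron marker sum was lowest in Vehicle mouse 2, which had the highest share of Atp1b2, and its part in the share was not tested.

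**Figure D4:**
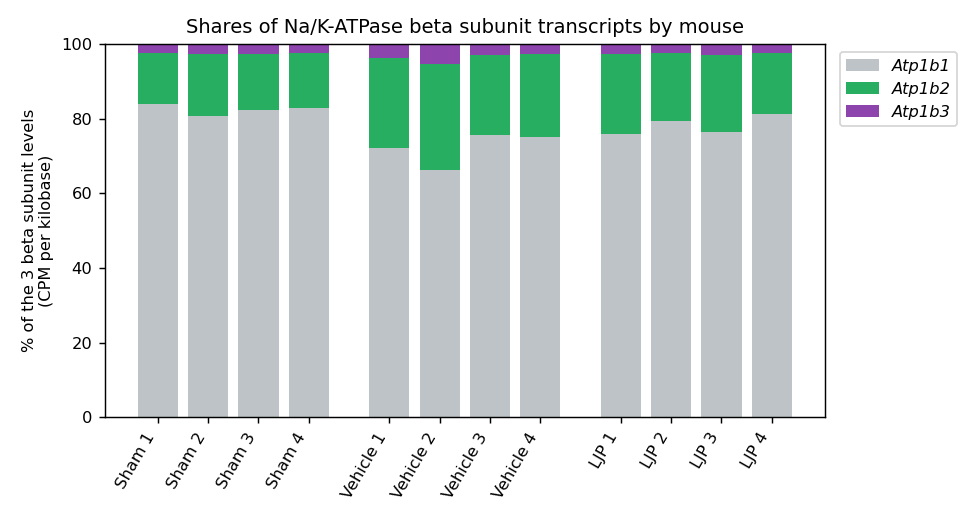
Share (vertical axis, percent) of Atp1b1, Atp1b2 and Atp1b3 in the sum of their levels per kilobase, 1 bar for each mouse. Atp1b2 averages 15.0% in the Sham, 24.03% in the Vehicle and 19.2% in the LJP group; the set was chosen after its values were seen.

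Of 6 tested partners of SUR receptors and TRPM4, Kcnj8, the pore of vascular ATP-sensitive potassium channels, rose by 1.58 on the log2 scale, and 1 of the 2 genes that fell was Calm2 (-0.50), which encodes calmodulin. Kcnj11, the pore subunit that pairs with SUR1 in neurons, was at -0.31 with an edgeR adjusted p of 0.0515, and Abcc9, which encodes SUR2, at 0.47 with 0.0540. DESeq2 called all 6 of these genes, 2 higher and 4 lower, Kcnj11 (adjusted p = 0.0486) and Abcc9 (0.0458) included, where it called 35.7% of the genes it gave an adjusted p. Of 24 tested bicarbonate, chloride and proton transporters and their regulators, 3 rose and 6 fell, with a median log2 fold change of -0.19. Slc12a7 (1.82), Slc12a4 (1.20), both potassium chloride cotransporters, and Slc9a3r1 (0.77), a scaffold for transporters, rose. Kcnj8 (17.1 CPM), Slc12a7 (47.6 CPM), Slc12a4 (88.4 CPM) and Slc9a3r1 (124 CPM) were highest in Vehicle mouse 2, which was also highest for endothelial markers. The part of endothelial RNA in their levels was not tested. Slc12a5, the neuronal potassium chloride cotransporter (-0.58), was among those that fell. Slc12a2, the NKCC1 cotransporter, was at -0.07 and not called.

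The list for volume-regulated anion channels held Ttyh1, Ttyh2, Ttyh3 and Clcn2 beside the Lrrc8 genes. Of its 8 tested genes, Lrrc8a, the essential subunit, rose by 1.05 and Lrrc8b fell by 0.39 on the log2 scale, while Lrrc8c was at 0.36 (edgeR adjusted p = 0.0795). None of 4 astrocyte potassium and gap junction channels passed the test, with the connexin gene Gjb6 at 0.30 (edgeR adjusted p = 0.0967), Kcnj10 at 0.26 and Gja1 at 0.11. Gjb6 was called higher with library size scaling (adjusted p = 0.0468) and with a replicate block (0.0383). Between the LJP and Vehicle groups, no gene of these lists was called by edgeR, while of 70 genes tested DESeq2 called 1 higher and 10 lower, and the study's thresholds gave 0 higher and 9 lower. Over all genes the calls also leaned to lower levels by both rules, with 672 higher and 1641 lower in DESeq2 and 188 higher and 1035 lower at the study's thresholds. Without Vehicle mouse 3, edgeR called 5 genes of the Aqp4 anchoring list, 4 of the anion channels, 3 each of the pump subunits and the bicarbonate, chloride and proton transporters, and 1 each of the aquaporins and the SUR and TRPM4 partners, with 3857 calls over all genes. Without Vehicle mouse 4 it called 4, 1, 2, 2, 0 and 1 of these lists, with 2095 calls over all genes. At the study's thresholds, 7 of 7 endothelial, 5 of 5 erythroid and 3 of 6 infiltrating macrophage markers also passed as lower in LJP against Vehicle, with median log2 fold changes of -1.54, -2.54 and -1.63. So did 4 of 4 tested airway and lung epithelium markers (median -6.18) and 1 of 5 ependymal markers, while 1 of 8 striatal projection neuron markers passed as higher. The part of these cells in the levels of the list genes was not tested. Against Sham, the LJP group had Utrn lower (-0.47) and Fxyd1 (0.65) and Slc9a3r1 (0.42) higher. These were the only calls among the 70 list genes tested, not a higher share than the 4.75% called over all genes. Leaving out each mouse kept the call for Utrn in 12 of 12 fits and those for Fxyd1 and Slc9a3r1 in 6 of 12 each. With the replicate block, neither Fxyd1 nor Slc9a3r1 was called.

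**Figure D5:**
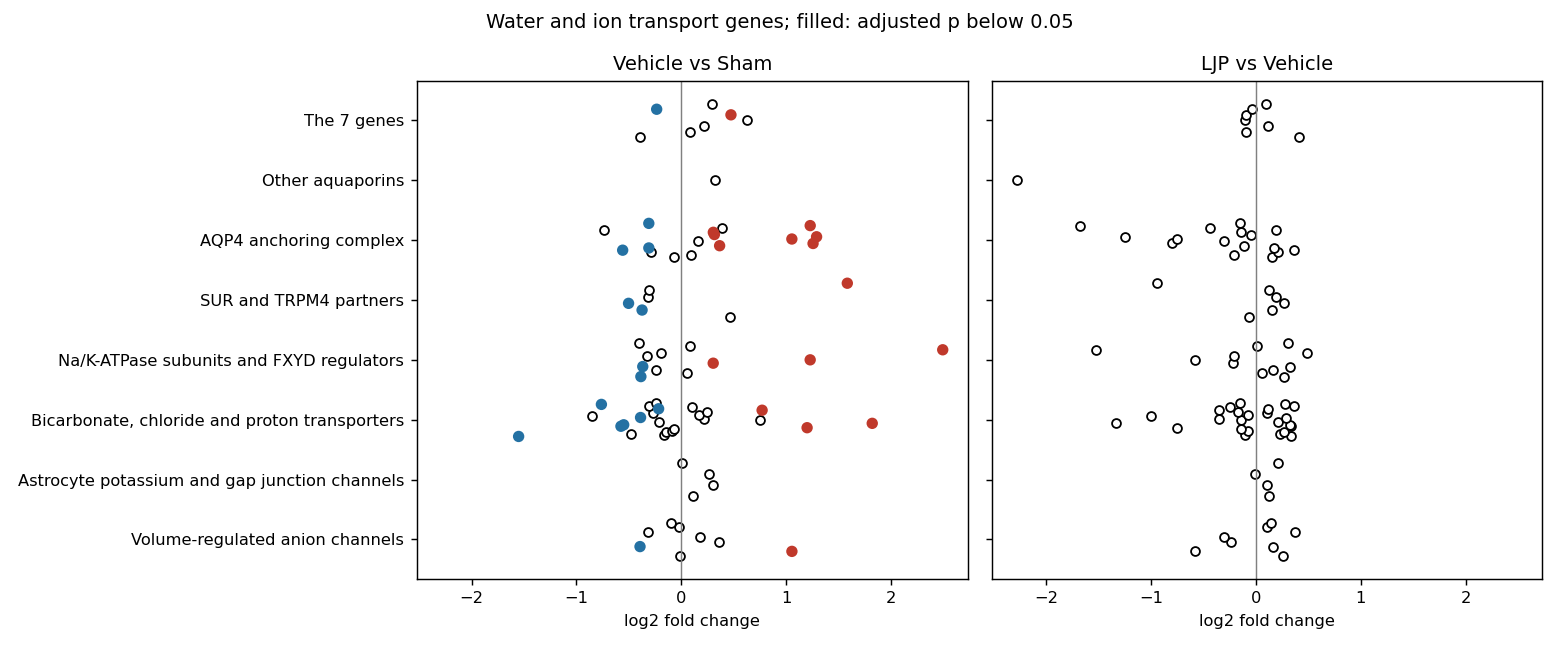
Log2 fold changes (horizontal axis) of the 7 genes and of the tested genes of each list (rows), for Vehicle against Sham and LJP against Vehicle, filled red where called higher and blue where called lower. Fxyd5 (2.49) is the highest point in the first panel, and no point is filled in the second.

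Markers of some other cell types moved with the groups. In the Vehicle group against Sham, all 8 markers of striatal projection neurons fell, and 5 of 6 microglia, 6 of 6 infiltrating macrophage, 5 of 5 erythroid, 2 of 5 ependymal and 1 of 6 oligodendrocyte markers rose. Of 9 astrocyte markers, 3 rose and 1 fell, and of 9 neuron markers 3 fell. Over all genes, 39.9% were called in this comparison (22.7% higher, 17.3% lower). The ependymal, oligodendrocyte, astrocyte and neuron counts are thus near or below the share called over all genes. No neutrophil marker passed the filter on low counts, and Cxcr2, Ly6g and Retnlg were at 0 in all Sham mice. Of 7 choroid plexus markers, none was called. Of 4 tested airway and lung epithelium markers, 3 were lower in the LJP group than in the Vehicle group and 3 than in the Sham group, with summed levels of 9.37 to 13.6 CPM in the Sham, 9.03 to 11 CPM in the Vehicle and 0.358 to 0.669 CPM in the LJP mice. Over all mice the astrocyte markers with the highest mean level were Slc1a2 and Gfap, and the neuron markers Slc17a7 and Snap25. Gfap, an intermediate filament of reactive astrocytes, averaged 141 CPM in the Sham, 2066 in the Vehicle and 1569 in the LJP group, so it weighs differently in the astrocyte sums of the groups.

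By the root mean square difference of standardised log2 CPM over the 12 mice, the genes nearest to each member were Zdhhc8, Gm34552 and 1110032F04Rik for Abcc8 (0.159 to 0.206), Rasa4, Klk6 and Ly9 for Atp1b2 (0.198 to 0.224), Pla2g15, Hexa and Car8 for Aqp4 (0.290 to 0.388) and Me2, Phc3 and E230025N22Rik for Slc4a4 (0.402 to 0.439). They were Fbrsl1, Lax1 and Tnfsf13b for Trpm4 (0.392 to 0.454), Sctr, Optn and Sec14l5 for Aqp9 (0.391 to 0.539) and Pygm, Rec114 and Gm38440 for Aqp11 (0.483 to 0.631). The median over all genes was 1.35 for Aqp4. A smaller value means a more similar pattern, and the nearest of 17558 genes are similar by selection.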

How the data were processed

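Poly(A) RNA was sequenced as paired-end reads. The deposited table holds raw counts per gene and mouse, made by the authors with featureCounts and compared with DESeq2 per the labels and methods. The labels name both GRCm39 and mm10, and 39754 of 39756 gene positions in the table equal those of GRCm38.p6. The aligner is not given in the sources used here. Counts were fitted in R 4.3.3 with edgeR 4.0.16 (filterByExpr, TMM, quasi-likelihood test, 1 coefficient per group, all 12 mice), with Benjamini-Hochberg adjustment over 17558 genes. Levels are CPM of the TMM library size. The 95% intervals come from the same fit. The script was tested on simulated data.

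The members and lists were chosen with earlier results of these data known. The text names all members, fixed partners of their complexes, the 3 genes with the smallest p in Vehicle against Sham per list, the markers at 0 or highest, and the 3 nearest genes per member; Utrn and Slc12a5 were named after their values were seen, and some genes that the rule names are not reported here. Alternatives were DESeq2 1.42.0, RLE, library size scaling, no filter, a fit of the 2 groups alone, a replicate block, the study's thresholds, and each mouse left out; those for the list genes, shares and gene length were added after seeing the data. RefSeq promoter windows were found for Slc4a4, Aqp11 and Aqp9.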

Additional observations from a re-analysis of the deposited data

Results flagged for a closer look

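Trpm4 in LJP mouse 2 (19.2 CPM) stood apart from the other 3 LJP mice (14.1 to 14.5 CPM): its gap to the nearest mouse was 0.916 of the range of the group, above Dixon's 95% critical value for 4 values. It was 1 of 21 groups of 4 values examined, where chance gives about 1.05. Without this mouse the log2 fold change of Trpm4 in LJP against Vehicle was -0.02.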

How the results depend on the processing

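Of 378 values of the members' fold changes under the alternatives, 344 kept their direction and side of the threshold, 12 lost a call, 10 gained one and 12 changed sign. Members called in Vehicle against Sham (2) became 1 with no filter, with only the 2 groups, or with the replicate block, and 0 at the study's thresholds; leaving out mice gave 1 to 3. In LJP against Sham (1) they became 2 with DESeq2 or RLE, 3 with only the 2 groups, 0 with the replicate block or the study's thresholds, and 0 to 3 without single mice. In LJP against Vehicle (0), leaving out mice gave 0 to 1. Over all genes, LJP against Vehicle gave 2313 with DESeq2, 593 with no filter, 2 with only the 2 groups, 2 with the block, 1223 at the study's thresholds and 3 to 3857 without single mice, the most without Vehicle mouse 3. LJP against Sham gave 1458 with DESeq2, 4043 with only the 2 groups, 464 with the block and 393 to 2357 without single mice. Vehicle against Sham gave 3807 at the study's thresholds and 5285 to 8200 without single mice. Library size scaling moved the share of calls that were higher in Vehicle against Sham from 56.8 to 67.3%. In LJP against Sham this share went from 81.1% to 50.7% with only the 2 groups and to 58.5% without Vehicle mouse 2. The cause of these shifts was not tested.

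Of fold changes whose sign changed, those without 1 mouse ran, for LJP against Sham, from -0.118 to 0.0996 (Abcc8) and from -0.125 to 0.0673 (Aqp11), for LJP against Vehicle from -0.0440 to 0.241 (Aqp4), from -0.362 to 0.101 (Aqp9) and from -0.0219 to 0.139 (Trpm4), and for Vehicle against Sham from -0.00377 to 0.719 (Aqp1) and from -0.0171 to 0.263 (Gja1). Aqp11 in LJP against Sham was 0.0384 with library size scaling and 0.00485 with no filter, and Slc12a2 in Vehicle against Sham was 0.00631 with library size scaling. Replicate numbers do not pair the mice: deviations of mice with the same number correlated between -0.04 and 0.03 (Vehicle, Sham), -0.32 and 0.11 (LJP, Vehicle) and -0.04 and 0.04 (LJP, Sham). With the block, Atp1b2 in LJP against Sham (0.38, adjusted p = 0.0605) and Slc4a4 in Vehicle against Sham (-0.23, adjusted p = 0.0515) were not called. In Vehicle against Sham, leaving out 1 mouse gave 3 to 6 calls for the SUR and TRPM4 partners, 6 to 11 for the bicarbonate, chloride and proton transporters, 2 to 5 for the volume-regulated anion channels and 0 to 2 for the astrocyte channels. Leaving out 1 mouse gave differences of 7.59 to 9.87 percentage points in the share of Atp1b2 among beta subunits for Vehicle against Sham. With 12 to 38 counts, depth limits Aqp9 most.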
